A study of Mus musculus with 6 samples.

Results

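Retinal ganglion cell genes were followed on 6 dual-colour Agilent arrays of mouse retina, 3 for the compound SH-42 and 3 for the compound SH-80. The set holds 10 genes: Rbpms, Pou4f1, Pou4f2, Sncg, Nefl, Nefm, Nefh, Thy1, Slc17a6 and Opn4. Its members are the non-control probes whose RefSeq name belongs to one of these genes, which gave 13 probes on 22 spots, of 39429 probes on 43020 spots in all. All 13 probes passed the filter on dim probes, as did 29457 of all probes. Adult male C57BL/6 mice, 12 per group, had received SH-42, SH-80 or phosphate-buffered saline (PBS) in the vitreous of the right eye, at a stated 1 µM. Retinas were taken 7 days later and pooled by 4. SH-42 and SH-80 are code names, and the labels give no structure or target. By the labels, the Cy3 dye of every array carries the pool given a compound and the Cy5 dye a PBS control pool, and no array has the dyes exchanged.

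Ganglion cells are the output neurons of the retina, and their axons form the optic nerve. POU-domain transcription factors and the RNA-binding protein RBPMS mark most of them, neurofilaments fill their long axons, the glutamate transporter encoded by Slc17a6 loads their synaptic vesicles, and a small intrinsically photosensitive subtype carries melanopsin. Loss of these transcripts is widely used as a sign of ganglion cell damage in glaucoma and optic nerve injury models. In whole retina, fewer ganglion cells and less RNA per ganglion cell cannot be told apart, and several members are also expressed by other retinal neurons.

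Values below are log2 ratios of Cy3 over Cy5 after background correction and loess normalization, so that "higher" means more signal in the channel labelled with the compound. The deposited value table runs the other way, Cy5 over Cy3, and all directions would turn if the channels were exchanged with respect to the labels. A dye effect particular to a probe stays in every ratio. Whether control pools were shared between arrays is not stated, and 12 control mice pooled by 4 could supply 3 pools for 6 arrays. The p-values therefore measure the spread between these arrays only. SH-42 replicate 1 gave the highest ratio of the 6 arrays for all 13 probes, and the comparisons are given with and without it. The share of all probes with their highest ratio there was not counted. Ratios of all probes spread most widely on that array, with an SD of 0.487 against 0.152 to 0.356 on the others. SH-42 replicate 1 shared a slide with SH-42 replicate 2, whereas SH-42 replicate 3 and the SH-80 arrays shared the other of 2 slides. Probes well above background made up 57.5% to 62.3% of the total in the Cy3 channel and 70.3% to 76.2% in the Cy5 channel, 0 spots were saturated, and 0 of 15 array pairs held identical values.

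Promoter sequence was at hand for 5 of the 10 genes and is shown for the 3 whose ratios on SH-42 replicate 1 were among the larger ones described below. Each run is the 250 bases before a RefSeq transcription start (GRCm38.p6), read 5′ to 3′ on the gene's strand. Capitals mark E-boxes (CANNTG), the general site of basic helix-loop-helix factors, and the letters ATTAAT, a core site of POU-domain factors. Both strands were searched, and the motifs do not overlap here.
Pou4f1, chr14:104468000-104468249, minus strand: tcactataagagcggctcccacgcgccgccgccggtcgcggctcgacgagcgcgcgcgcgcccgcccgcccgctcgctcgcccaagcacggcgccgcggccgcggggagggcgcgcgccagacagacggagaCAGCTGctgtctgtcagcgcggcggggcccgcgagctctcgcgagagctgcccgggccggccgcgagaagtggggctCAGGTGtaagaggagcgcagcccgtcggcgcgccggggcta
Pou4f2, chr8:78436648-78436897, minus strand: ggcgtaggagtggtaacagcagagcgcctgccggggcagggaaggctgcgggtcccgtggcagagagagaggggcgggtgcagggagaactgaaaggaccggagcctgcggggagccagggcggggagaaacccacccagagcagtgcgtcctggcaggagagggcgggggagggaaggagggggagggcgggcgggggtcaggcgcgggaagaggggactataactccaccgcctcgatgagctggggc
Slc17a6, chr7:51624387-51624636, plus strand: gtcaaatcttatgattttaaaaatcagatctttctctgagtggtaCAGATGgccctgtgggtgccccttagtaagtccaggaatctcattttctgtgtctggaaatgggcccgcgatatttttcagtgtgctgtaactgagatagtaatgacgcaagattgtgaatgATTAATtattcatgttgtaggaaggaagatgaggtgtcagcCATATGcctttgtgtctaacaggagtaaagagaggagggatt
The Pou4f1 window held 2 E-boxes, the Pou4f2 window 0 and this Slc17a6 window 2, against 66.2% of 32851 promoter windows with at least 1. ATTAAT occurred in 1 place, in this Slc17a6 window, and in 4.39% of all windows. The GC box GGGCGG, not capitalised, occurred 5 times before Pou4f2, 2 times before Pou4f1 and 0 times in the Slc17a6 window shown, and in 32.7% of all windows. A second Slc17a6 window, before another transcription start, held 1 E-box, 1 GC box and 0 ATTAAT, and is not printed. These matches describe the letters only.

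On SH-42 replicate 1 all 13 ganglion cell probes had a ratio above 0, with a median of 0.80 and a range from 0.07 to 1.55. On that array 47.2% of all probes lay above 0. Every other array had a member median below 0: -0.08 and -0.26 on SH-42 replicates 2 and 3, and -0.18, -0.09 and -0.41 on SH-80 replicates 1 to 3. Of the 13 probes, 10 were below 0 on all 5 of these arrays, against 31.6% of all probes. Opn4 is among the 10 and passed the filter through Cy5 alone, which leans its ratio that way. The probe that lay above 0 on all 5 was A_55_P1968231 of Rbpms.

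**Figure D1:**
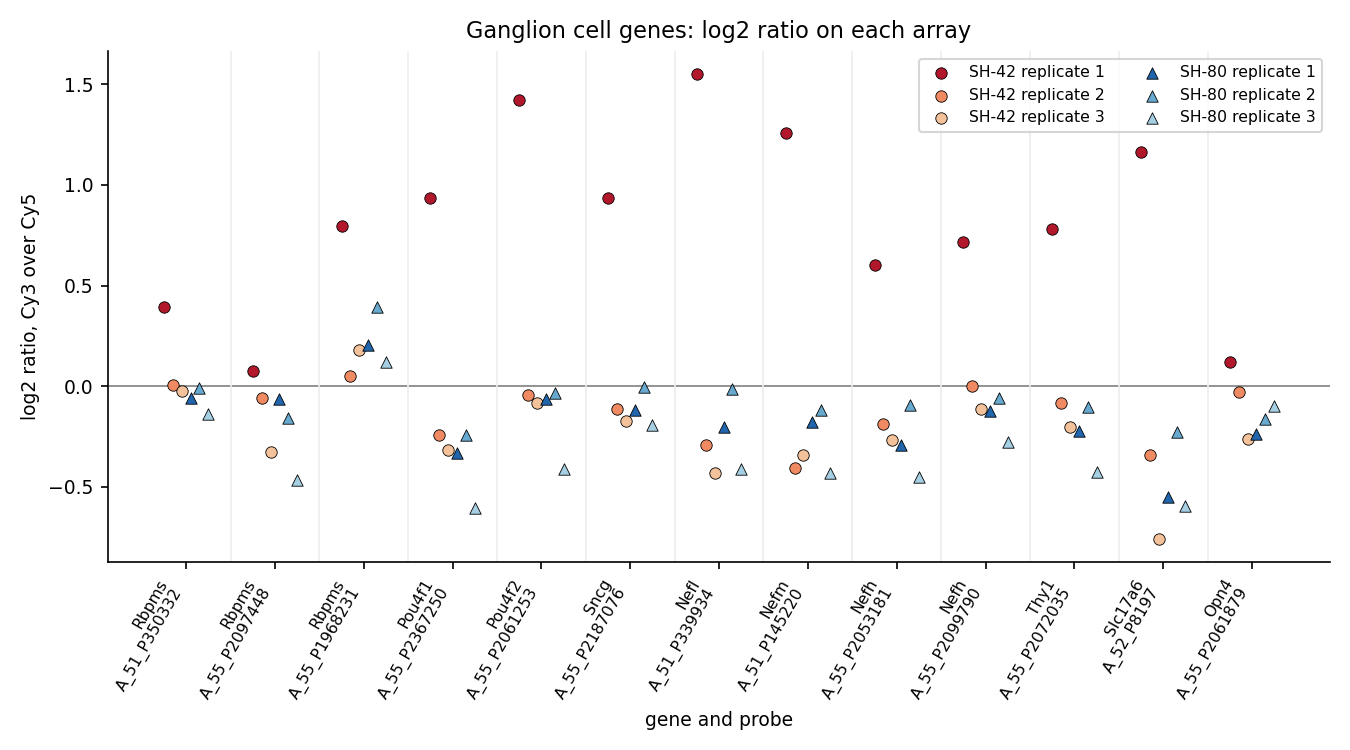
Log2 ratio of Cy3 over Cy5 for the 13 ganglion cell probes, with 1 point per array, circles for SH-42 and triangles for SH-80. SH-42 replicate 1 is the highest point of every probe, from 0.07 for an Rbpms probe to 1.55 for Nefl.

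Among the transcription factors, Pou4f2 (Brn3b), which is needed for ganglion cell differentiation and survival, had ratios of 1.42, -0.04 and -0.08 on SH-42 replicates 1 to 3 and of -0.06, -0.03 and -0.41 on SH-80 replicates 1 to 3. Pou4f1 (Brn3a), its paralog in most adult ganglion cells, had 0.93, -0.24 and -0.31 for SH-42 and -0.33, -0.24 and -0.60 for SH-80. Both factors were high on SH-42 replicate 1 and below 0 on the other 5 arrays, so the groups overlapped.

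The neurofilament genes encode the intermediate filaments of large axons. Nefl, the light chain, had ratios of 1.55, -0.29 and -0.43 with SH-42 and of -0.20, -0.01 and -0.41 with SH-80. Nefm, the medium chain, had 1.26, -0.41 and -0.34 with SH-42 and -0.18, -0.12 and -0.43 with SH-80. Both chains again had 1 high array and 5 arrays below 0.

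Nefh, the heavy chain, has 2 probes. A_55_P2053181 read 0.60, -0.19 and -0.27 with SH-42 and -0.29, -0.09 and -0.45 with SH-80. A_55_P2099790 read 0.71, 0.00 and -0.11 with SH-42 and -0.12, -0.06 and -0.28 with SH-80. The ratio of A_55_P2053181 minus that of A_55_P2099790 was -0.14 ± 0.06 (SD, n = 6 arrays) and below 0 on 6 of 6 arrays, so the probes kept 1 order while following the same pattern.

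The Nefm probe is printed on 10 spots of each array, which gives the spread of measurement within an array, without that of labelling, hybridization or pools. The SD between these spots was 0.0326 to 0.0605, whereas the SD between arrays was 0.942 for SH-42, 0.167 for SH-80 and 0.646 over all 6. On SH-42 replicate 1 the spots ran from 1.13 to 1.35, and on no other array did a Nefm spot lie above 0.

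Slc17a6, the vesicular glutamate transporter VGLUT2, had ratios of 1.16, -0.34 and -0.76 with SH-42 and of -0.55, -0.23 and -0.60 with SH-80. The -0.76 on SH-42 replicate 3 was the lowest ratio of any ganglion cell probe on any of the 6 arrays. Sncg, gamma-synuclein, abundant in ganglion cell bodies and axons, had 0.93, -0.11 and -0.17 with SH-42 and -0.12, 0.00 and -0.19 with SH-80.

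Thy1, a surface glycoprotein long used to purify ganglion cells, had ratios of 0.78, -0.08 and -0.20 with SH-42 and of -0.22, -0.10 and -0.42 with SH-80. Opn4, melanopsin, had 0.12, -0.03 and -0.26 with SH-42 and -0.24, -0.16 and -0.10 with SH-80. Opn4 was not well above background in Cy3 on 6 of 6 arrays and was above it in Cy5 on all 6. Opn4 thus passed the filter through Cy5 alone, so its ratio leans to Cy5 by that choice, and no fold between the channels is given for it.

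Rbpms encodes an RNA-binding protein found in nearly all ganglion cells, and its 3 probes gave different ratios. A_51_P350332 and A_55_P1968231 carry the name of RefSeq transcript NM_019733, and A_55_P2097448 that of NM_001042675. A_51_P350332 read 0.39, 0.00 and -0.03 with SH-42 and -0.06, -0.01 and -0.14 with SH-80. A_55_P1968231 read 0.80, 0.05 and 0.18 with SH-42 and 0.21, 0.39 and 0.12 with SH-80, and was above 0 on 6 of 6 arrays. A_55_P2097448 read 0.07, -0.06 and -0.33 with SH-42 and -0.06, -0.16 and -0.46 with SH-80.

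The order of the 3 Rbpms probes was the same on every array, with A_55_P1968231 highest and A_55_P2097448 lowest. A_55_P1968231 exceeded A_51_P350332 by 0.26 ± 0.13 (SD, n = 6 arrays), although both are named for the same transcript, with a smallest gap of 0.05 and a largest of 0.40. A_55_P1968231 exceeded A_55_P2097448 by 0.46 ± 0.23, and A_51_P350332 exceeded A_55_P2097448 by 0.19 ± 0.14. Each of the 3 pairs gave p = 0.03125 in an exact two-sided sign-flip permutation test over the 6 arrays, also after Benjamini-Hochberg adjustment over the pairs, the smallest p that 6 arrays can give. The gap of A_55_P1968231 over A_55_P2097448 is the sum of the other gaps, so its p follows from theirs. A dye effect particular to a probe stays in these gaps and was not tested. Without SH-42 replicate 1 the gaps were 0.23, 0.40 and 0.17, where 5 arrays cannot give an exact p below 0.0625. The last gap was 0.0034 on SH-80 replicate 1, and with plain median centring it was 0.14 with p no longer past the threshold. Where the probes lie in the gene was not analysed here.

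**Figure D2:**
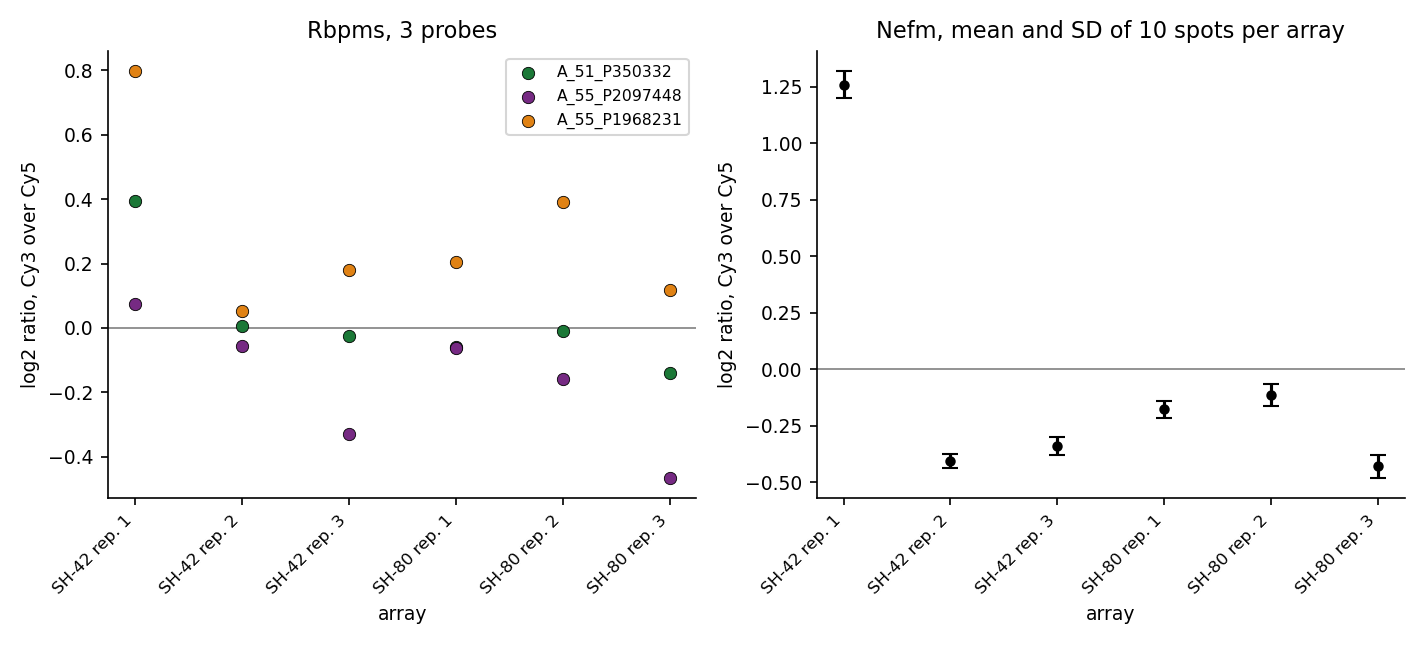
Left, log2 ratio of Cy3 over Cy5 of the 3 Rbpms probes on each array, where the probes keep 1 order on all 6 arrays. Right, mean and SD of the 10 Nefm spots per array, where the SD of 0.0326 to 0.0605 is small beside the distance of SH-42 replicate 1 from the other arrays.

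The channels were then read separately, as log2 levels made comparable across arrays (Aquantile). The member levels in Cy3, labelled with a compound, were nearly constant: their range over the 6 arrays was 0.0373 to 0.262, with a median of 0.132. In Cy5, labelled control, the range was 0.358 to 1.95, with a median of 1.18 over 6 arrays and 0.346 without SH-42 replicate 1. Cy5 ranged more widely than Cy3 in 13 of 13 probes, against 79.0% of all probes. The median SD over arrays was 0.0535 in Cy3 and 0.416 in Cy5 for the members, and 0.0691 and 0.140 over all probes. Cy3 thus varied less over pools labelled with different compounds than Cy5 over pools all labelled control, and whether the channel labels hold was not tested.

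Nefl shows the pattern. Its Cy3 level was 13.86, 13.77 and 13.83 on SH-42 replicates 1 to 3 and 13.83, 13.87 and 13.84 on SH-80 replicates 1 to 3. Its Cy5 level was 12.31, 14.06 and 14.26 on the SH-42 arrays and 14.03, 13.89 and 14.25 on the SH-80 arrays. The Cy5 level of Nefl on the next lowest array was 2.99-fold that on SH-42 replicate 1, whereas its Cy3 level on that array lay within the range of the others.

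The same fold was 2.64 for Nefm, 2.59 for Slc17a6, 2.53 for Pou4f2, 2.34 for Pou4f1 and 2.04 for Sncg. It was 1.78 for Thy1, 1.67 and 1.48 for the Nefh probes, 1.46, 1.36 and 1.19 for the Rbpms probes and 1.19 for Opn4. Cy5 was lowest on SH-42 replicate 1 in 13 of 13 probes, as it was in 43.0% of all probes. The high ratios of that array therefore lay mainly in a low Cy5 level of these genes.

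**Figure D3:**
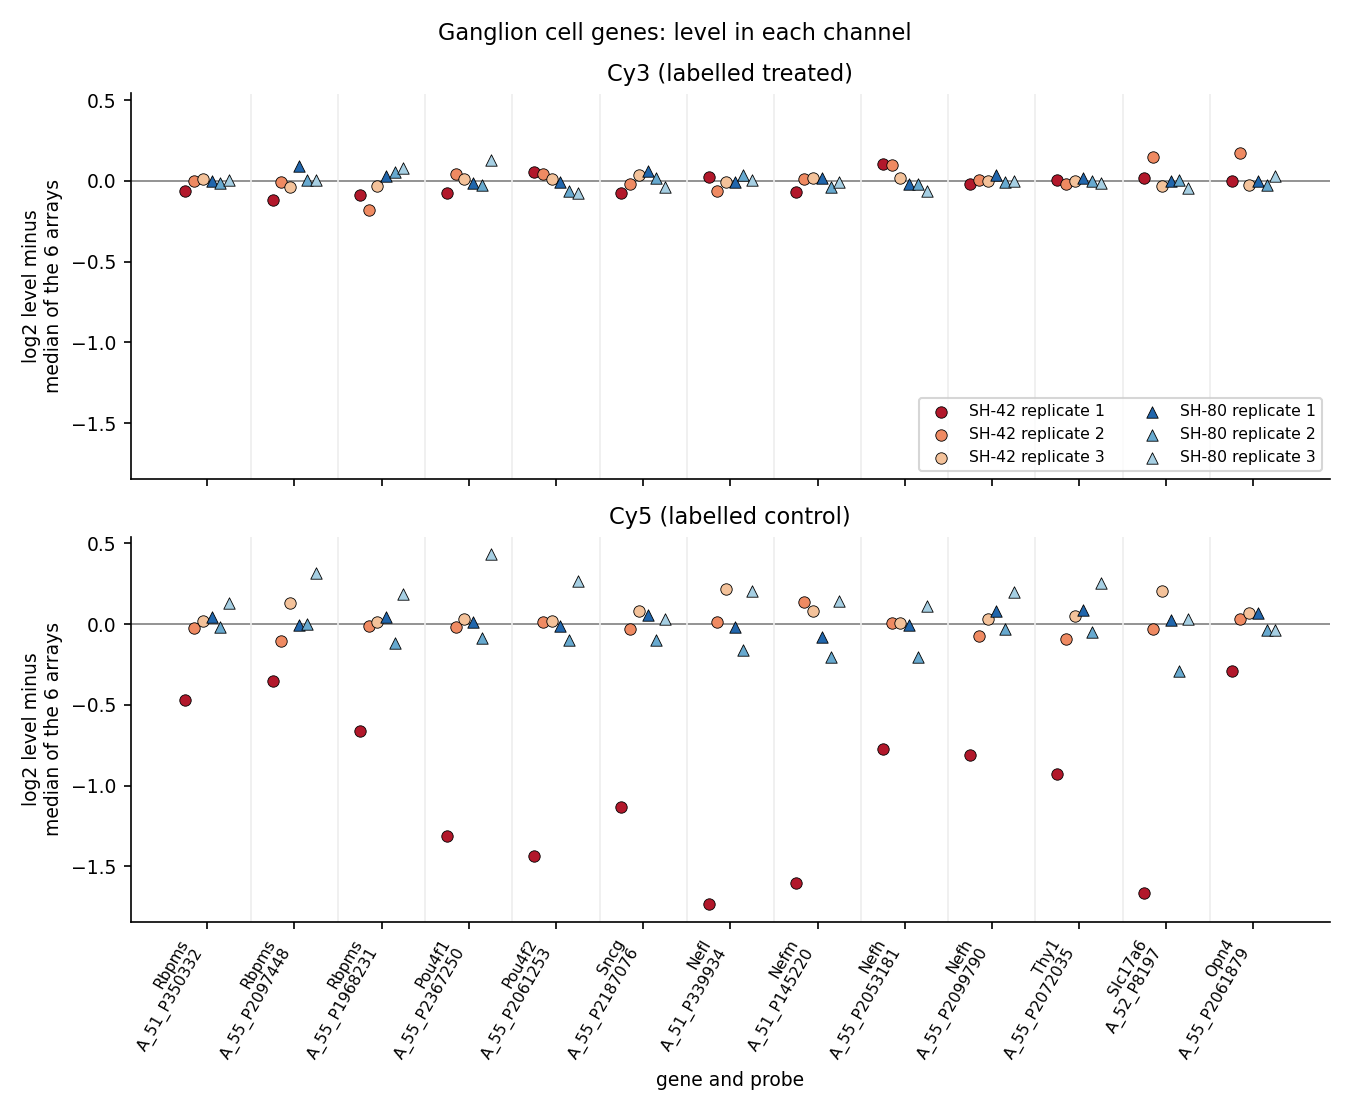
Log2 level of each ganglion cell probe on each array minus the median of its 6 arrays, for Cy3 (upper panel, labelled treated) and Cy5 (lower panel, labelled control), with circles for SH-42 and triangles for SH-80. The Cy3 points lie close together, with ranges of 0.0373 to 0.262, and in Cy5 the SH-42 replicate 1 point is the lowest of all 13 probes.

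Against control, SH-42 changed no ganglion cell probe past the threshold. In limma's test, with an adjusted p of 0.05 as the threshold, 0 of 13 probes passed, also 0 at an unadjusted p, against 0.455% and 23.2% of all probes. The ratio was above 0 in 11 of 13 probes, with a member median of 0.16 beside -0.03 over all probes, and the lowest adjusted p was 0.220. Pou4f2 had the largest mean, 0.43 ± 0.29 (SE, n = 3 arrays), with a 95% interval from -0.26 to 1.13. Without SH-42 replicate 1 the member median was -0.15 and 10 of 13 probes turned sign, so the direction rested on that array. In that fit 0 of 13 passed in limma's test, and 5 of 13 at an unadjusted p. Over all probes 457 and 6995 passed, beside 134 and 6834 with every array kept. The lowest members were Slc17a6 at -0.55 (adjusted p = 0.0899) and Nefm at -0.37 (adjusted p = 0.0913). The direction also rested on the normalization. With all arrays kept, the member median was -0.19 with median centring, which moved the median of all probes to -0.23. With scale normalization the member median was -0.08.

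SH-80 against control also gave 0 of 13 probes past the threshold and 0 at an unadjusted p, where 13.9% and 35.1% of all probes passed. The member median was -0.21 beside -0.03 over all probes, with 12 of 13 probes below 0, Opn4 among them, and a lowest adjusted p of 0.180. With a stricter filter, which drops Opn4, the member median was -0.22 with 1 of 12 probes above 0. With the slide as a fixed block the median of the 13 member probes was 0.08, with 9 of 13 probes above 0. All SH-80 arrays shared a slide, so the slide term of that fit came from the SH-42 arrays alone, SH-42 replicate 1 among them. With median centring the member median was -0.41, where the median of all probes was -0.14. Slc17a6 had the lowest mean, -0.46 ± 0.34 (SE, n = 3), with an interval from -1.27 to 0.35. The means are those of the 3 SH-80 arrays, but their error is pooled with the SH-42 arrays.

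With SH-42 replicate 1 left out of that pooled error, 6 of 13 probes passed for SH-80 in limma's test, as did 38.0% of all probes, and 10 passed at an unadjusted p, as did 50.2% of all probes. Lower were Slc17a6 (-0.46 ± 0.10, SE), Pou4f1 (-0.39 ± 0.08), Nefh by A_55_P2053181 (-0.28 ± 0.07), Thy1 (-0.25 ± 0.07) and Nefm (-0.24 ± 0.07). The adjusted p of these 5 lay between 0.0138 for Pou4f1 and 0.0394 for Nefm. Higher was the Rbpms probe A_55_P1968231 (0.24 ± 0.07, adjusted p = 0.0344). The members' share of calls was near that of all probes.

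SH-42 and SH-80, the 1 pair of compounds compared, were given at the same dose and read on the same day. Their difference in ratio was above 0 in 13 of 13 probes, with a member median of 0.35 beside 0.01 over all probes, but 0 of 13 passed in limma's test and the lowest adjusted p was 0.699. No probe on the array passed (0%), and at an unadjusted p 0 of 13 members and 3.86% of all probes did. The ratios of the SH-42 and SH-80 arrays overlapped in all 13 probes, whereas they did not overlap in 13.3% of all probes.

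The intervals were wide. The difference was 0.60 ± 0.41 (SE) for Pou4f2, with a 95% interval from -0.38 to 1.59, and 0.48 ± 0.52 for Nefl, with an interval from -0.76 to 1.73. For Rbpms by A_51_P350332 it was 0.19 ± 0.13, with an interval from -0.12 to 0.51. Without SH-42 replicate 1 the member median was 0.04 with 5 of 13 probes turned to below 0, and within the slide that holds both compounds it was -0.06.

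**Figure D4:**
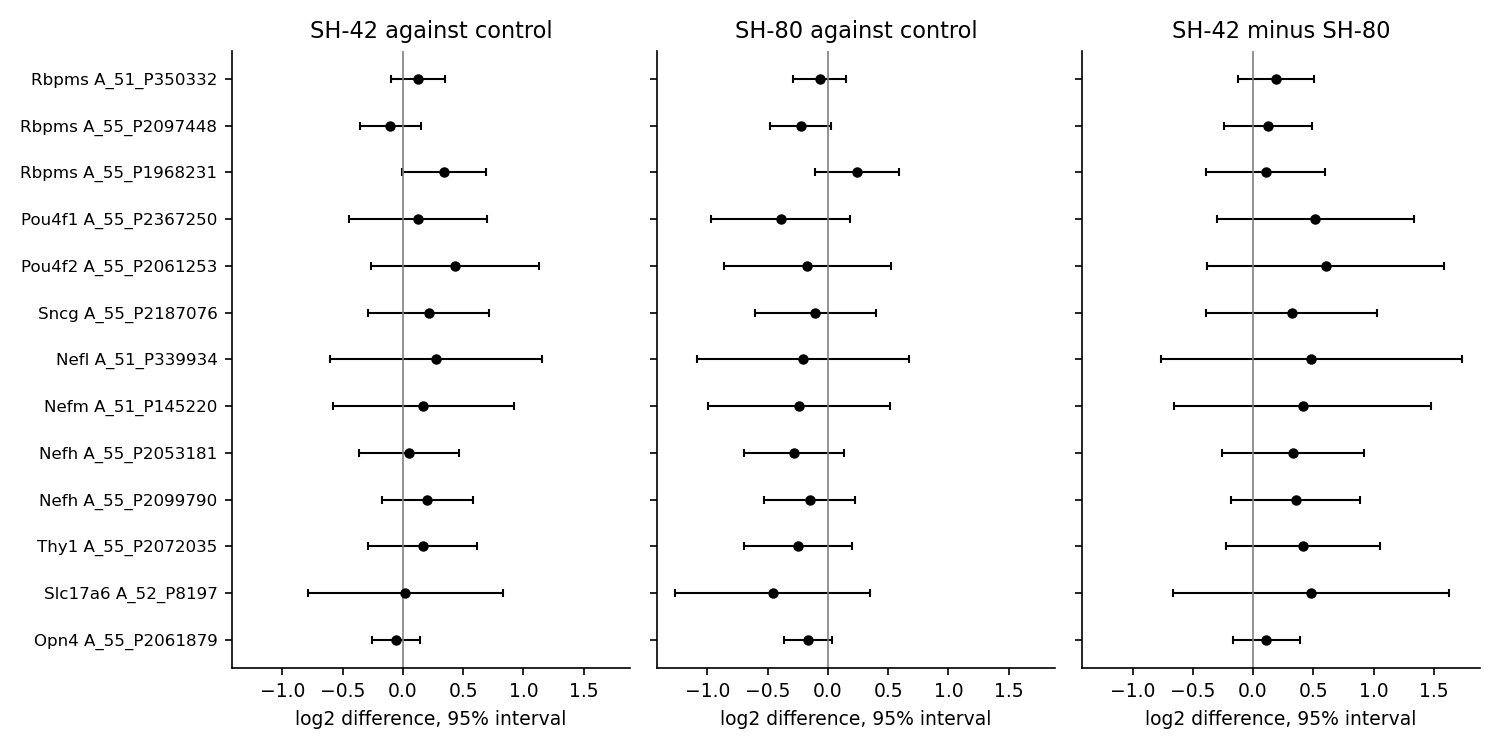
Fitted log2 difference with its 95% interval for the 13 ganglion cell probes, for each compound against control (left and middle panels) and for SH-42 minus SH-80 (right panel), with 3 arrays per compound. Every interval includes 0, and the widest are those of Nefl, Slc17a6 and Nefm.

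Read by channel, the Cy3 levels of the SH-42 arrays minus those of the SH-80 arrays had a member median of -0.01 beside -0.02 over all probes. The Cy5 levels had a member median of -0.37 beside -0.03 over all probes, with 13 of 13 member probes below 0. No member passed in either channel (0 of 13, and 0% of all probes, in limma's test). At an unadjusted p, 2 of 13 passed in Cy3, against 9.41% of all probes, and 0 of 13 in Cy5, against 3.52%. The Cy3 level was 0.11 ± 0.04 (SE) higher with SH-42 for Nefh by A_55_P2053181 and fell by 0.16 ± 0.05 for Rbpms by A_55_P1968231, both at an adjusted p of 0.517. Without SH-42 replicate 1 the Cy5 median was -0.03.

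A list of 22 further ganglion cell transcription factors and subtype markers had a median ratio of 0.66 on SH-42 replicate 1 and of -0.15 to 0.04 on the other 5 arrays. On SH-42 replicate 1, 19 of the 22 lay above 0, as did 47.2% of all probes. There 17 had their highest ratio of the 6 arrays and 2 their lowest, and the shares of all probes were not counted. Isl1, a LIM-homeodomain factor that acts with Pou4f2 and is also in the bipolar cell list, read 1.21 there and -0.11 to 0.13 elsewhere. Tbr1, a T-box factor of ganglion cell subtypes, read 0.71 there and -0.69 to -0.27 elsewhere. Of the 22, 0 passed in limma's test for either compound or their difference, where 0.455%, 13.9% and 0% of all probes did. At an unadjusted p 1 passed for SH-42, 5 for SH-80 and 0 for the difference, against 23.2%, 35.1% and 3.86% of all probes. Spp1 (osteopontin), a marker of alpha ganglion cells that macrophages also make, was 1 of the 3 below 0, with -2.15 on SH-42 replicate 1 and 1.67 to 2.68 on the other 5 arrays.

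The list of 20 genes of axon growth, transport and neuronal cytoskeleton had a median ratio of 0.72 on SH-42 replicate 1 and of -0.29 to -0.07 elsewhere. On that array 18 of the 20 lay above 0, as did 47.2% of all probes. Uchl1, an abundant neuronal ubiquitin hydrolase, read 0.87 there and -0.06 to 0.14 elsewhere. Map1b had a smaller unadjusted p for SH-42 in limma's test (0.0380, against 0.0535 for Uchl1) and read -0.12 on SH-42 replicate 1. With SH-80, 1 of 20 passed and was lower: Sv2c, a synaptic vesicle protein, at -0.60 ± 0.13 (SE, adjusted p = 0.0367 in limma's test), where 13.9% of all probes passed. Sv2c read 0.12, -0.04 and -0.58 with SH-42, and -0.59, -0.54 and -0.68 with SH-80. Snap25, a vesicle fusion protein, had -0.46 ± 0.13 with SH-80 at an adjusted p of 0.0621.

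The list of 18 injury and regeneration genes had a median of -0.22 on SH-42 replicate 1 and of -0.04 to 0.29 elsewhere. On that array 13 of the 18 lay below 0 and 5 above, where 47.2% of all probes lay above 0. There 11 had their lowest ratio of the 6 arrays and 0 their highest, and the shares of all probes were not counted. Tnfrsf12a, the receptor of TWEAK, read -1.40 there and -0.17 to 0.64 on the other arrays. Atf3, a transcription factor induced by axon damage, read -0.63 there and 0.06 to 0.89 elsewhere. Gal, the neuropeptide galanin, read 0.26 there and -0.22 to 0.49 elsewhere, and Chac1, a stress-induced glutathione-degrading enzyme, read -0.25 there and -0.55 to 0.02 elsewhere. In limma's test 0 of 18 passed for either compound or their difference, including SH-80, for which 13.9% of all probes passed. At an unadjusted p 0 passed for SH-42, 8 for SH-80 and 0 for the difference, against the same 23.2%, 35.1% and 3.86% of all probes.

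Markers of several other cell types moved on the same array, but not those of all. Lists of bipolar, amacrine and rod photoreceptor genes had medians of 1.11, 0.87 and 0.53 on SH-42 replicate 1, in the direction of the ganglion cell genes, and highest medians of 0.04, -0.04 and -0.01 on the other arrays. Lists of microglia and macrophage, astrocyte and Muller glia genes had medians of -1.65, -1.19 and -0.95 there, against lowest medians of 0.05, 0.01 and 0.00 elsewhere. Skeletal muscle genes had -2.50 there and -1.82 on SH-80 replicate 2, and lens genes had 1.76 there, 3.15 on SH-80 replicate 1 and 2.90 on SH-80 replicate 3. Oligodendrocyte genes had -0.06 on SH-42 replicate 1, within their range of -0.28 to -0.06 elsewhere. Pigment epithelium genes had 0.11 there against 0.22 to 1.16 elsewhere, and endothelial genes -0.26 against 0.03 to 0.37. All 12 bipolar and 12 rod genes were above background in both channels of every array, as were 11 of 12 lens genes and 9 of 10 pigment epithelium genes. Only 5 of 12 skeletal muscle genes and 5 of 7 astrocyte genes were, so the medians of these lists include dim genes. The part of these other cell types in the ganglion cell ratios was not tested.

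**Figure D5:**
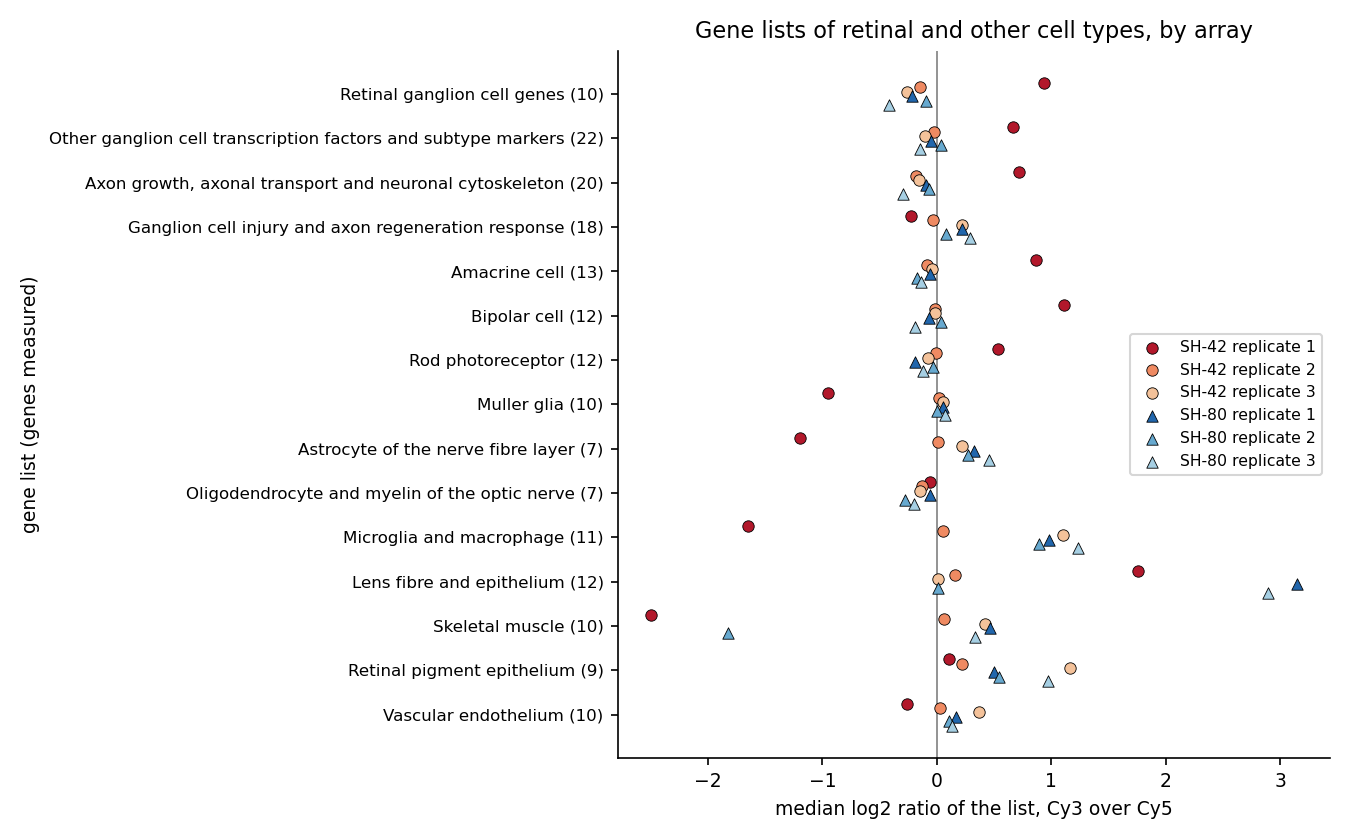
Median log2 ratio of Cy3 over Cy5 of 15 gene lists on each array, with the number of genes measured in brackets, circles for SH-42 and triangles for SH-80. On SH-42 replicate 1 the neuronal lists lie above 0, from 0.53 for rods to 1.11 for bipolar cells, and the glial lists of microglia, astrocytes and Muller cells lie below 0. The oligodendrocyte list lies at -0.06 there, within the range of the other arrays.

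The members resembled each other over the arrays, mainly through that 1 array. The 45 gene pairs had correlations of ratios from 0.72 to 1.00 with a median of 0.976 over the 6 arrays, and from -0.51 to 0.98 with a median of 0.599 without SH-42 replicate 1. These describe 6 arrays that may share control pools. The genes outside the set with the highest Pearson correlation with the mean ratio of the 10 genes over 6 arrays were Maneal, P2rx3, Nrip3, Gm4759 and Stam, with r from 0.9984 to 0.9997. Correlation compares shape and not size: on SH-42 replicate 1 that mean was 0.92, whereas Nrip3 read 1.13 and Stam 0.12. Of 15906 candidate genes, 1243 (7.81%) had r over 0.95.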

How the data were processed

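RNA of pooled mouse retina was read on 6 Agilent arrays, 3 per compound. Per the file headers, the deposited scanner files give spot and local background intensity in both channels, outlier and saturation flags (other values), and a log10 ratio of processed red over green, which equals the processed signals for all spots above background in both channels. The headers name Feature Extraction 11.0.1.1 and the submitters' processing notes 9.3.2.1. The deposited value table holds log2 of Cy5 over Cy3, as its values show. For 99.7% of them, the difference from that log ratio of the processed signals lay within 0.01 of a constant per array. Column medians ran from -0.0754 to -0.0464. Scale and centring were thus read from the values, and which RNA each channel holds rests on the labels.

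Median signals were background-corrected (normexp, offset 50), loess-normalized within arrays with control and outlier spots at weight 0, and averaged per probe. The filter kept probes with at least 0.5 of their spots above background, in Cy3 or Cy5, on 3 or more arrays. Gene names came from RefSeq accessions: 26055 of 39429 probes matched. Both compounds were fitted over the 6 arrays with limma 3.58.1 in R 4.3.3 (lmFit, eBayes, Benjamini-Hochberg over all probes, two-sided), as were channel levels. The fits were tested on simulated data of independent arrays with equal spread. Those data held no outlying array, slide effect or shared pool, so that test cannot judge these. Named are all members, some of the genes of smallest p per list (up to 3 per comparison), and the 5 genes of highest correlation with the members' mean. For SH-42 minus SH-80, genes with a smaller p than a named gene of their list included Satb1, Irx4, L1cam, Jun and Bbc3. They read 0.36, 1.10, 0.42, -0.47 and -0.85 on SH-42 replicate 1, in that order. List genes given for their array values alone (Isl1, Atf3) were chosen after their values were seen. Lists use the brightest probe per gene. The members and lists were chosen with earlier results of these data known. Alternatives covered background, normalization, filter, probe choice, slide, blocks and each array left out. The number of arrays limits the precision. Files were read with the R packages jsonlite 2.0.0 and data.table (version 1.17.8), and plots were made with Python 3.11.15 and matplotlib 3.10.9.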

Additional observations from a re-analysis of the deposited data

Results flagged for a closer look

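Of the 13 ganglion cell probes, 12 had a log2 Cy5 level on SH-42 replicate 1 that lay further below the other 5 arrays than Dixon's 95% critical value for 6 values allows. The levels on that array were 8.25 for Rbpms A_51_P350332, 7.56 for Rbpms A_55_P1968231, 9.78 for Pou4f1 A_55_P2367250, 8.43 for Pou4f2 A_55_P2061253, 12.09 for Sncg A_55_P2187076, 12.31 for Nefl A_51_P339934. They were 8.91 for Nefm A_51_P145220, 12.06 for Nefh A_55_P2053181, 9.09 for Nefh A_55_P2099790, 13.78 for Thy1 A_55_P2072035, 9.34 for Slc17a6 A_52_P8197 and 7.11 for Opn4 A_55_P2061879. The exception was the Rbpms probe A_55_P2097448. Chance would mark about 1 in 20 such groups, and 22.1% of all probes passed the same critical value, so passing it was not confined to these genes. The array and side of the outlying value over all probes are not given here. The probes were read on the same arrays and are not independent. No cause was tested.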

How the results depend on the processing

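No ganglion cell probe passed for SH-42 minus SH-80 or in either channel under any alternative run. The count of all probes called for SH-42 (134) was 0 with a normexp offset of 0, robust eBayes, the slide as a fixed block, the replicate block or the arrays of the compound alone, 3810 without background correction, 3914 with Agilent processed signals, 4589 with the deposited table, 10925 with median centring, 3 with scale normalization, 79 with probes averaged per gene, 3455 with array weights, 1429 on slide 2 alone, and 0 to 457 leaving out 1 array. For SH-80 (4097) it was 804 with scale normalization, 2416 with a stricter filter, 0 with robust eBayes, the fixed slide block or the replicate block, 12142 with array weights, 2643 with the slide as a random block, 11090 on slide 2 alone and with its arrays alone, and 0 to 11186 leaving out 1 array (11186 when SH-42 replicate 1 was dropped, 2499 for SH-42 replicate 2, and 0 for each SH-80 array). For Cy3 levels (0) leaving out 1 array gave 0 to 826, the latter without SH-42 replicate 3. Slide 2 holds 1 SH-42 array (replicate 3), assumed there to vary like the 3 SH-80 arrays, and on that basis 1 member probe was called for SH-42 (Slc17a6). Member probes called for SH-80 were 5 with array weights, on slide 2 alone and with its arrays alone, and 0 to 6 leaving out 1 array. For SH-80, slide 2 alone and its arrays alone rest on the same arrays and are not separate checks. The SH-80 member median was -0.41 with median centring and 0.0822 with the fixed slide block, whose slide term came from the SH-42 arrays alone. The Rbpms gap of A_51_P350332 over A_55_P2097448 was 0.14 with median centring. Leaving out 1 array the 3 Rbpms gaps were 0.23 to 0.31, 0.40 to 0.53 and 0.17 to 0.23, where 5 arrays cannot give p below 0.0625. The cause of these shifts was not tested.

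Same-numbered arrays of the compounds had correlations of deviations of -0.14, -0.42 and 0.19, and arrays of unlike number from -0.30 to 0.33. With so few arrays these correlations cannot decide whether the numbers pair the arrays. The replicate block called 0 probes for either compound. Of the turned values that follow, the 1 past the threshold is that of Slc17a6 on the lone SH-42 array of slide 2, and with probes averaged the value is that of the gene. Some signs turned for SH-42 against control. With the deposited value table the value was Slc17a6 -0.0209. With median centring the values were Rbpms A_51_P350332 -0.0260, Pou4f1 -0.28, Sncg -0.31, Nefl -0.29, Nefm -0.19, Nefh A_55_P2053181 -0.46, Nefh A_55_P2099790 -0.11, Thy1 -0.46, Slc17a6 -0.37, Opn4 0.18. With scale normalization the values were Pou4f1 -0.15, Nefl -0.0961, Nefm -0.26, Nefh A_55_P2053181 -0.14, Slc17a6 -0.33. With probes averaged per gene the value was Rbpms A_55_P2097448 0.12. With array weights the values were Pou4f1 -0.22, Pou4f2 -0.00273, Sncg -0.0902, Nefl -0.25, Nefm -0.35, Nefh A_55_P2053181 -0.17, Thy1 -0.0720, Slc17a6 -0.35. With the slide as a fixed block the values were Nefh A_55_P2053181 -0.0283, Slc17a6 -0.17. On slide 2 alone the values were Rbpms A_51_P350332 -0.0256, Pou4f1 -0.31, Pou4f2 -0.0834, Sncg -0.17, Nefl -0.43, Nefm -0.34, Nefh A_55_P2053181 -0.27, Nefh A_55_P2099790 -0.11, Thy1 -0.20, Slc17a6 -0.76. Some signs turned for SH-80 against control, where the fixed slide block takes its slide term from the SH-42 arrays alone. With median centring the value was Opn4 0.0522. With probes averaged per gene the value was Rbpms A_55_P1968231 -0.0195. With the slide as a fixed block the values were Rbpms A_51_P350332 0.0437, Pou4f2 0.22, Sncg 0.19, Nefl 0.32, Nefm 0.14, Nefh A_55_P2099790 0.0822, Thy1 0.0256, Slc17a6 0.13. Some signs turned for SH-42 minus SH-80. There the fixed slide block and slide 2 alone both set SH-42 replicate 3 against the SH-80 arrays, so they are not separate checks. With Agilent processed signals the value was Opn4 -0.16. With the deposited value table the value was Opn4 -0.20. With scale normalization the value was Nefm -0.0693. With array weights the values were Rbpms A_55_P1968231 -0.16, Nefl -0.0682, Nefm -0.13. With the slide as a fixed block the values were Rbpms A_55_P2097448 -0.10, Rbpms A_55_P1968231 -0.0597, Sncg -0.0676, Nefl -0.22, Nefm -0.0981, Slc17a6 -0.30, Opn4 -0.0964. On slide 2 alone the values were Rbpms A_55_P2097448 -0.10, Rbpms A_55_P1968231 -0.0597, Sncg -0.0676, Nefl -0.22, Nefm -0.0981, Slc17a6 -0.30, Opn4 -0.0964. Some signs turned for Cy3 level SH-42 minus SH-80. With a normexp offset of 0 the value was Nefm 0.00459. With quantile normalization over all channels the values were Rbpms A_51_P350332 0.00321, Nefh A_55_P2099790 0.00707. With the slide as a fixed block the values were Rbpms A_51_P350332 0.0106, Sncg 0.0200, Nefm 0.0282, Slc17a6 -0.0195, Opn4 -0.0268. Some signs turned for Cy5 level SH-42 arrays minus SH-80 arrays. With the slide as a fixed block the values were Rbpms A_55_P2097448 0.0255, Sncg 0.0876, Nefl 0.20, Nefm 0.13, Nefh A_55_P2053181 0.0388, Slc17a6 0.28, Opn4 0.0696. For SH-42 against control, the ranges of the probes that turned sign on leaving out an array were Rbpms A_51_P350332 -0.0105 to 0.20, Pou4f1 -0.28 to 0.35, Pou4f2 -0.0624 to 0.69, Sncg -0.14 to 0.41, Nefl -0.36 to 0.63, Nefm -0.37 to 0.46, Nefh A_55_P2053181 -0.23 to 0.21, Nefh A_55_P2099790 -0.0556 to 0.36, Thy1 -0.14 to 0.35, Slc17a6 -0.55 to 0.41, Rbpms A_55_P2097448 -0.19 to 0.00867, Opn4 -0.15 to 0.0460. For SH-42 minus SH-80, the ranges of the probes that turned sign on leaving out an array were Rbpms A_55_P1968231 -0.12 to 0.25, Sncg -0.0384 to 0.51, Nefl -0.15 to 0.84, Nefm -0.13 to 0.70, Slc17a6 -0.0921 to 0.87. For Cy3 level SH-42 minus SH-80, the ranges of the probes that turned sign on leaving out an array were Rbpms A_51_P350332 -0.0292 to 0.00544, Nefm -0.0191 to 0.0240, Thy1 -0.0136 to 0.00237, Opn4 -0.0135 to 0.0859, Pou4f1 -0.0636 to 0.0129. For Cy5 level SH-42 arrays minus SH-80 arrays, the ranges of the probes that turned sign on leaving out an array were Sncg -0.58 to 0.0305, Nefl -0.87 to 0.10, Nefm -0.72 to 0.16, Nefh A_55_P2053181 -0.35 to 0.0380, Slc17a6 -0.77 to 0.16, Opn4 -0.13 to 0.0527.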
